A study of Mus musculus with 18 samples.

Results

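The genes described here are the mouse genes of cholesterol and fatty acid synthesis, with their SREBP control genes and the genes of sterol transport and efflux. They are 34 of the 34162 genes in the deposited table and were chosen by symbol as pathway members, without a rule on their values. Earlier results of these data were known when the members and the other gene lists were chosen, so the choice was not blind. The list holds 5 genes of SREBP control, 7 of the mevalonate steps, 10 of the sterol steps, 4 of sterol transport and LXR response, and 8 of fatty acid synthesis. All 34 symbols were found. Each library was made from some 500 CD4+ effector T cells, sorted at week 3 after transfer of T cells into Rag-deficient mice, which lack lymphocytes of their own. CAR-deficient cells were C57BL/6 Nr1i3-/-, without the nuclear receptor CAR (constitutive androstane receptor), and wild-type cells came from C57BL/6 CD45.1+ donors. Each genotype was sorted from the small intestinal lamina propria (siLP), the colonic lamina propria (cLP) and the spleen, which gave 6 groups of 3 libraries. Whether libraries of 1 group came from different animals, and whether both genotypes shared a host, is not stated, so the p-values reflect only variation among these libraries and that variation may be technical.

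Cells make cholesterol from acetyl-CoA by way of mevalonate and squalene, and fatty acids by carboxylation and elongation of the same starting unit. When sterols in the endoplasmic reticulum run low, Scap carries the SREBP transcription factors to the Golgi for activation, and they switch on nearly every gene of both routes, whereas the Insig proteins hold Scap back when sterols are plentiful. For sterols, oxysterols act in the opposite sense through the nuclear receptor LXR, which raises the efflux pumps Abca1 and Abcg1. Activated T cells draw on both routes to build membranes as they divide.

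In the control regions, 26 of the 34 genes matched the RefSeq table of promoters (GRCm38.p6, the same assembly as mm10, to which the deposited values refer), with windows of 300 bases in which position 1 is the first transcribed base of RefSeq and -1 the base before it. The 3 promoters below belong to genes that led the comparison of colon with spleen and were chosen for display after their values had been seen. Capitals mark the sterol regulatory element TCACNCCAC, and the CCAAT box on either strand (CCAAT or ATTGG), to which NF-Y binds beside SREBP. Hmgcs1 lies at chr13:119690101-119690400 on the plus strand, Cyp51 at chr5:4104648-4104947 on the minus strand and Insig1 at chr5:28071162-28071461 on the plus strand, each window spanning the promoter and the start of the first exon.
Hmgcs1: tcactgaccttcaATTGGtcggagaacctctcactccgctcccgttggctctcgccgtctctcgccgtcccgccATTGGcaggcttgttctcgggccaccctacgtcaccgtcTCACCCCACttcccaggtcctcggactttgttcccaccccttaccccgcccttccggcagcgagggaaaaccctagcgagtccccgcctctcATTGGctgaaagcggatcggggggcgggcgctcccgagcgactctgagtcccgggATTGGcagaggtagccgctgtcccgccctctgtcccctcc
Cyp51: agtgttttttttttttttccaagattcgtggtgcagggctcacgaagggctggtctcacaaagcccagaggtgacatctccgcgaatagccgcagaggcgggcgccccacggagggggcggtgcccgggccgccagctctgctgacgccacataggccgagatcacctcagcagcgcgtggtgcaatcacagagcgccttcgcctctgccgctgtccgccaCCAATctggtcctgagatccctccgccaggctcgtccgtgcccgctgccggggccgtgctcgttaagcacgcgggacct
Insig1: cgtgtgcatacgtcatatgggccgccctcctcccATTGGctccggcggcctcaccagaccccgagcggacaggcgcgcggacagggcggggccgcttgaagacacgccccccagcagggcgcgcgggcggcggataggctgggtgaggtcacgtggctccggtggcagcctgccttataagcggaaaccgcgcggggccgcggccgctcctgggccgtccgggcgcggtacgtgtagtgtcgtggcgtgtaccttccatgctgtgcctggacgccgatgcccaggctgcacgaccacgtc

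The sterol regulatory element, searched on both strands as the exact letters TCACNCCAC, was found in 1 of the 26 matched genes, Hmgcs1. It begins there at position -137, and it was found in 1.436% of all 27025 genes with a window. Forms with other letters were not searched for, so a window without a match may still hold such an element. The CCAAT box was found in 20 of the 26 genes, against 41.058% of all genes. In Hmgcs1 it occurs at -237, -176, -45 and 11, in Cyp51 at -29 and in Insig1 at -216. The E-box CACGTG was found in 6 of the 26, among them Insig1, Abca1 and Scap, against 8.093% of all genes. No motif overlaps another in the 3 printed windows. These matches describe the letters in the windows only.

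Libraries held 19605316 to 25436582 estimated counts each. The 3 columns of each group carry 3 endings, used here as library names a, b and c. The 6 libraries a stood apart, with 15466 to 16128 genes detected and 3.70% to 3.98% mitochondrial counts, against 17013 to 18819 genes and 2.23% to 3.22% in the other 12. The 5 CD4 T cell markers summed to 5263 to 13444 CPM (counts scaled to library size, with TMM factors) in every library. Nr1i3 itself, the deleted gene, was low and uneven, at 0 to 9.49 CPM, and did not separate the genotypes. It had 196, 0 and 0 counts in siLP CAR-deficient libraries and 0, 5 and 0 in siLP wild-type libraries, so the highest count lay in a library labelled CAR-deficient. Which part of the gene was deleted is not stated, so these counts cannot check the genotype labels. It had 0, 29 and 1 counts in cLP CAR-deficient libraries and 0, 0 and 10 in cLP wild-type libraries. The spleen counts were 0, 14 and 14 in CAR-deficient libraries and 36, 0 and 7 in wild-type libraries. Counts above the floor of 3 were thus found in 4 CAR-deficient and 4 wild-type libraries, and the genotype labels rest on the column names alone.

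The 34 genes spanned a wide range of levels per length, given as TPM computed from the counts and the merged exon length of each gene in the annotation, which makes genes with many alternative exons look lower. Ebp, the sterol isomerase, averaged 102 ± 32.0 TPM over the 18 libraries (SD), and Fdps, which makes farnesyl diphosphate, averaged 51.4 ± 25.2 TPM. Idi1 (isopentenyl diphosphate isomerase) averaged 50.2 ± 23.5 TPM, Pmvk (phosphomevalonate kinase) 39.9 ± 12.5 TPM and Sc5d (sterol desaturase) 34.3 ± 10.7 TPM. Acat2 (acetoacetyl-CoA thiolase), Msmo1 (methylsterol monooxygenase), Cyp51 (lanosterol demethylase), Hmgcs1 (HMG-CoA synthase) and Stard4 (an intracellular sterol carrier) averaged 24.1, 22.6, 21.5, 17.9 and 15.7 TPM. In all, 15 genes averaged over 10 TPM and 4 averaged under 1 TPM. From Ebp down to Acaca, neighbours in this order overlap within their SDs.

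**Figure D1:**
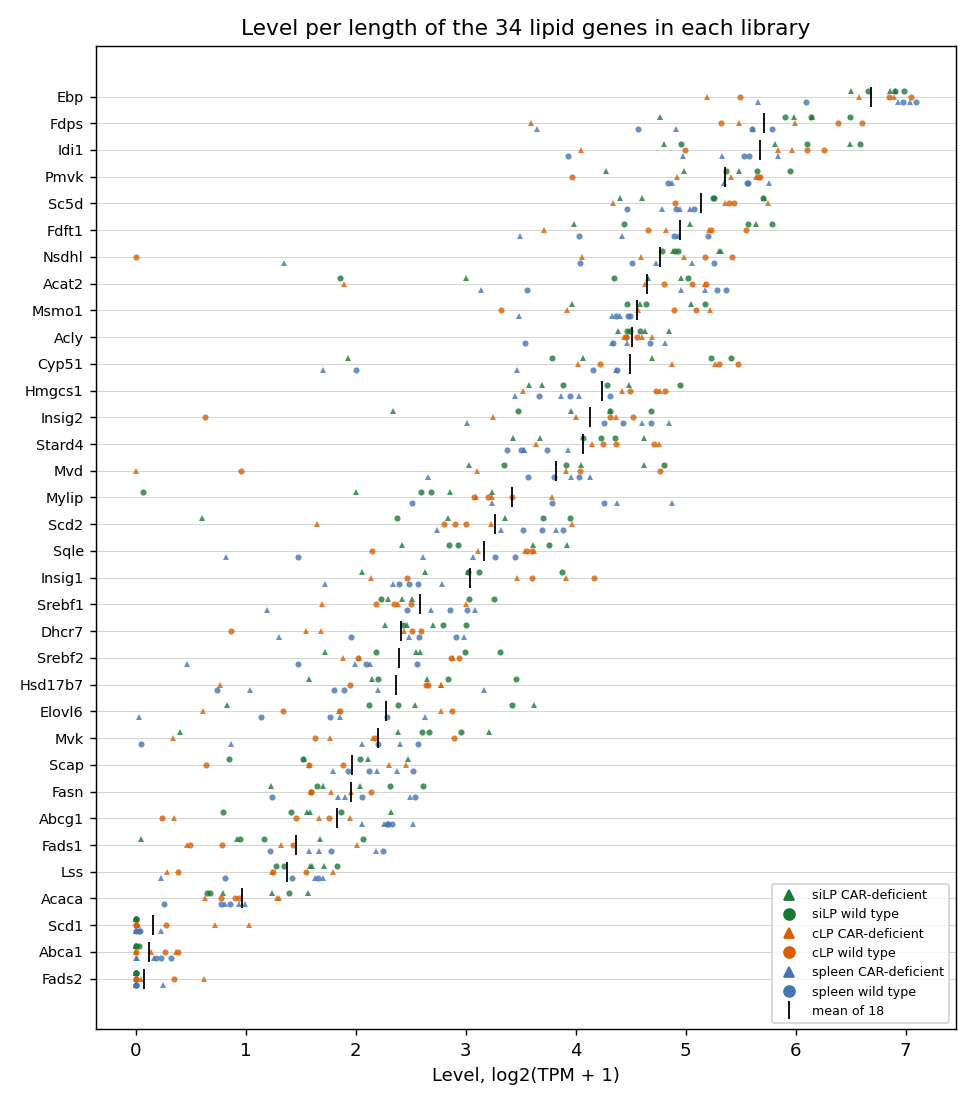
Level of each of the 34 genes in each of the 18 libraries, as log2(TPM + 1) on the x axis, with genes ordered by their mean. Triangles are CAR-deficient and circles wild type, colours mark the organ, and the black bar marks the mean of 18 libraries. Ebp is at the top (mean 102 TPM), and Scd1, Abca1 and Fads2 are near 0 in most libraries.

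The SREBP genes themselves were present at low levels. Srebf2, which encodes the SREBP that favours sterol genes, averaged 4.25 ± 2.16 TPM, and Srebf1, whose product favours fatty acid genes, averaged 5.02 ± 1.92 TPM. Scap averaged 2.91 ± 1.24 TPM and Insig1, the feedback inhibitor that SREBP itself induces, 7.24 ± 4.26 TPM. Insig2 had the highest mean of the 5 control genes, 16.5 ± 7.64 TPM.

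In fatty acid synthesis, Acly, which supplies cytosolic acetyl-CoA, averaged 21.8 ± 3.72 TPM, Elovl6 (fatty acid elongase) 3.84 ± 3.05 TPM, Fasn (fatty acid synthase) 2.89 ± 1.13 TPM and Acaca (acetyl-CoA carboxylase) 0.958 ± 0.447 TPM. Of the stearoyl-CoA desaturases, Scd2 averaged 8.63 ± 4.20 TPM and Scd1 0.119 TPM. Scd1 had fewer than 3 counts in 14 of 18 libraries and 0 in every siLP library. Its levels in cLP CAR-deficient libraries were 0.0616, 2.56 and 1.27 CPM, against 0, 0 and 0.454 CPM in cLP wild-type libraries. Fads2, a desaturase of polyunsaturated fatty acids, had fewer than 3 counts in 15 of 18 libraries and was the only one of the 34 that was not tested. Fads1, its partner enzyme, averaged 1.75 ± 1.12 TPM. The other 33 passed the filter on low counts, and 25 had at least 3 counts in every library. Scd1 reached the filter through cLP libraries.

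Libraries of 1 group differed widely for some of the genes and little for others, as the heat map shows. Within groups, the median SD of log2(CPM + 1) was 0.609 for the 33 tested genes and 0.603 for all 14876 tested genes. Hmgcs1 was among the steadiest, with an SD of 0.305, and Ebp had 0.353. Nsdhl (a sterol dehydrogenase), Elovl6 and Mvd (mevalonate diphosphate decarboxylase) varied most, with SDs of 1.57, 1.33 and 1.15. Much of this spread lay between library a and its partners. Library a was the lowest of its group in 53.5% of 198 gene and group combinations, against 43.4% over all genes, and without the libraries a the median SDs were 0.347 and 0.376. Nsdhl shows the pattern, with 0, 56.1 and 44.6 CPM in cLP wild-type libraries a, b and c and 2.95, 42.3 and 31.3 CPM in spleen CAR-deficient libraries.

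**Figure D2:**
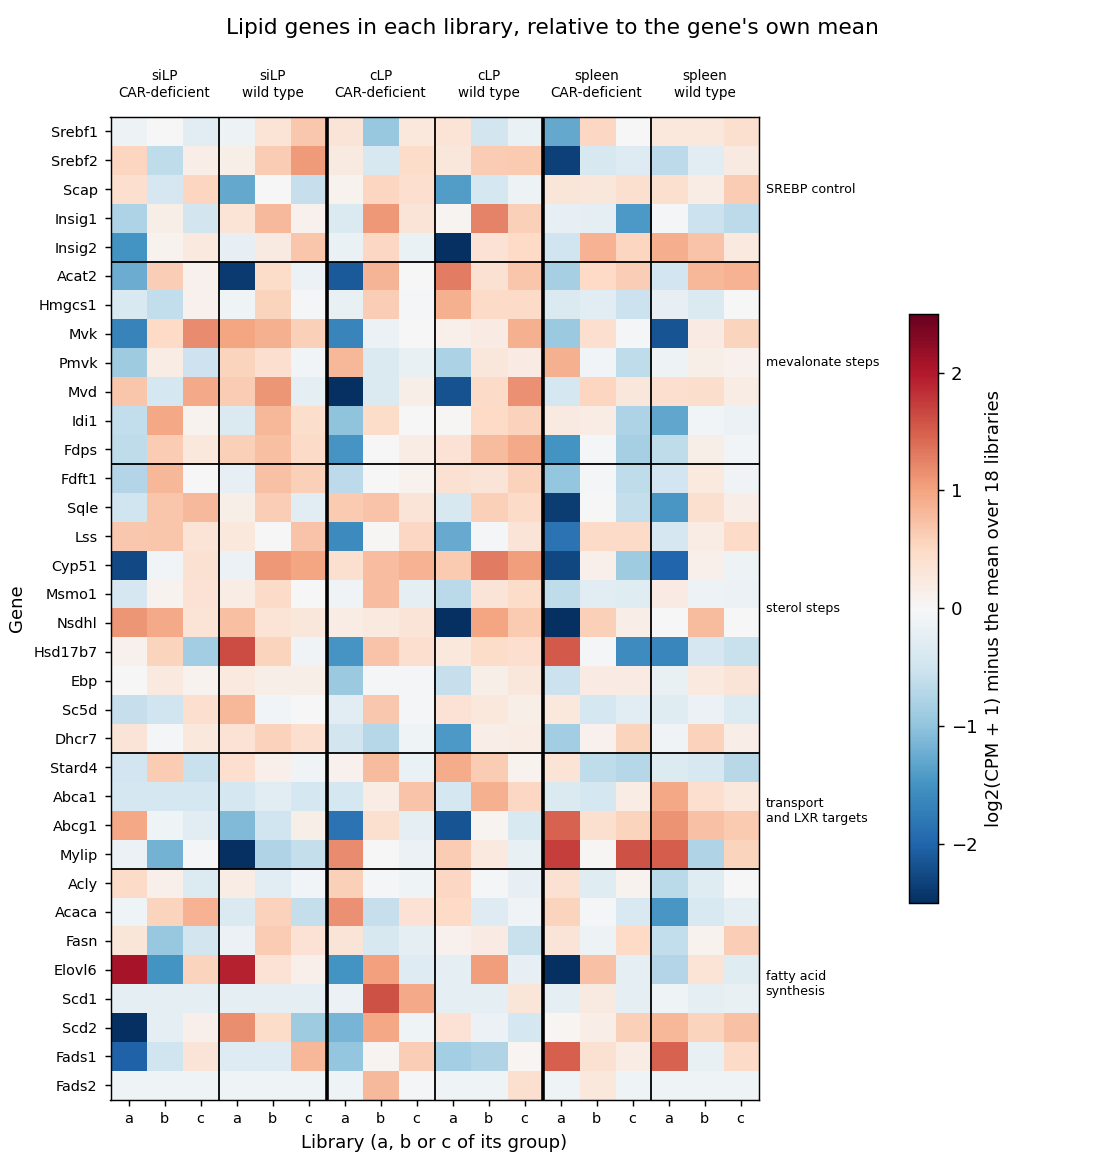
Heat map of log2(CPM + 1) minus the gene's own mean over 18 libraries, with the 34 genes in rows by role and the libraries in columns by organ and genotype. Dark blue cells, where a gene is far under its mean, lie mostly in columns a, such as Nsdhl in cLP wild-type library a (0 CPM).

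Gut and spleen were compared to ask how the site from which effector cells were recovered bears on these genes. Summed over members, the genes of the sterol route had higher means in both gut sites than in spleen, within overlapping SDs, and those of the fatty acid route had similar means. The 10 sterol-step genes summed to 507 ± 72.7 CPM in siLP and 488 ± 106 CPM in cLP, and to 391 ± 68.0 CPM in spleen (SD, n = 6 libraries each). The 7 mevalonate-step genes summed to 341 ± 96.8 CPM in siLP and 341 ± 102 CPM in cLP, against 254 ± 54.3 CPM in spleen. The 8 fatty acid genes summed to 127 ± 26.3 CPM in siLP, 123 ± 19.95 CPM in cLP and 121 ± 15.2 CPM in spleen. In bulk libraries, fewer cells that express a gene and less of its RNA in each cell cannot be told apart.

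No single gene of the 34 passed the test in colon or small intestine against spleen. In cLP against spleen, 0 of 33 genes had an adjusted p under 0.05 (edgeR quasi-likelihood test, Benjamini-Hochberg over all genes), where 3.07% of all tested genes did, and 6 of 33 had an unadjusted p under 0.05, where 15.0% of all genes did. DESeq2 called 3 of the 33 (Hmgcs1, Insig1 and Cyp51) and limma's voom with quality weights called 8. Over all 14876 genes tested, DESeq2 called 1054 and voom 1828 in the same comparison. In siLP against spleen, 0 of 33 were called by edgeR, with 0.847% of all genes called, and 6 of 33 had an unadjusted p under 0.05 against 9.65% of all genes. Among these 6, Scd1 and Abca1 passed the filter through libraries outside siLP, so their lower siLP values are a description only. DESeq2 and voom also called 0. Fold changes lay above 0 for 20 of 33 genes in cLP (50.2% of all genes) and 21 of 33 in siLP (49.2% of all genes). The 20 include Scd1 (2.49), which passed the filter through cLP libraries, so its place among them is no test. The median log2 fold change of the 33 was 0.26 in cLP and 0.28 in siLP, beside 0.00 and -0.01 over all genes tested. These medians rested on few libraries. The cLP median was 0.08 without cLP wild-type library c, 0.15 without cLP wild-type library b and 0.15 without cLP CAR-deficient library c, and 0.17 without the 6 libraries a and 0.14 by voom. The siLP median was 0.17 without siLP CAR-deficient library c, 0.16 by voom and, without the 6 libraries a, 0.08 with 18 of 33 above 0. By role, 10 of 10 sterol-step genes were above 0 in siLP and 7 of 10 in cLP, and 5 of 7 mevalonate genes in each. Both gut comparisons share the same 6 spleen libraries. In siLP, 0 of 33 genes lay above all spleen libraries without overlap (1.83% of all genes) and 0 lay below (0.370%).

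**Figure D3:**
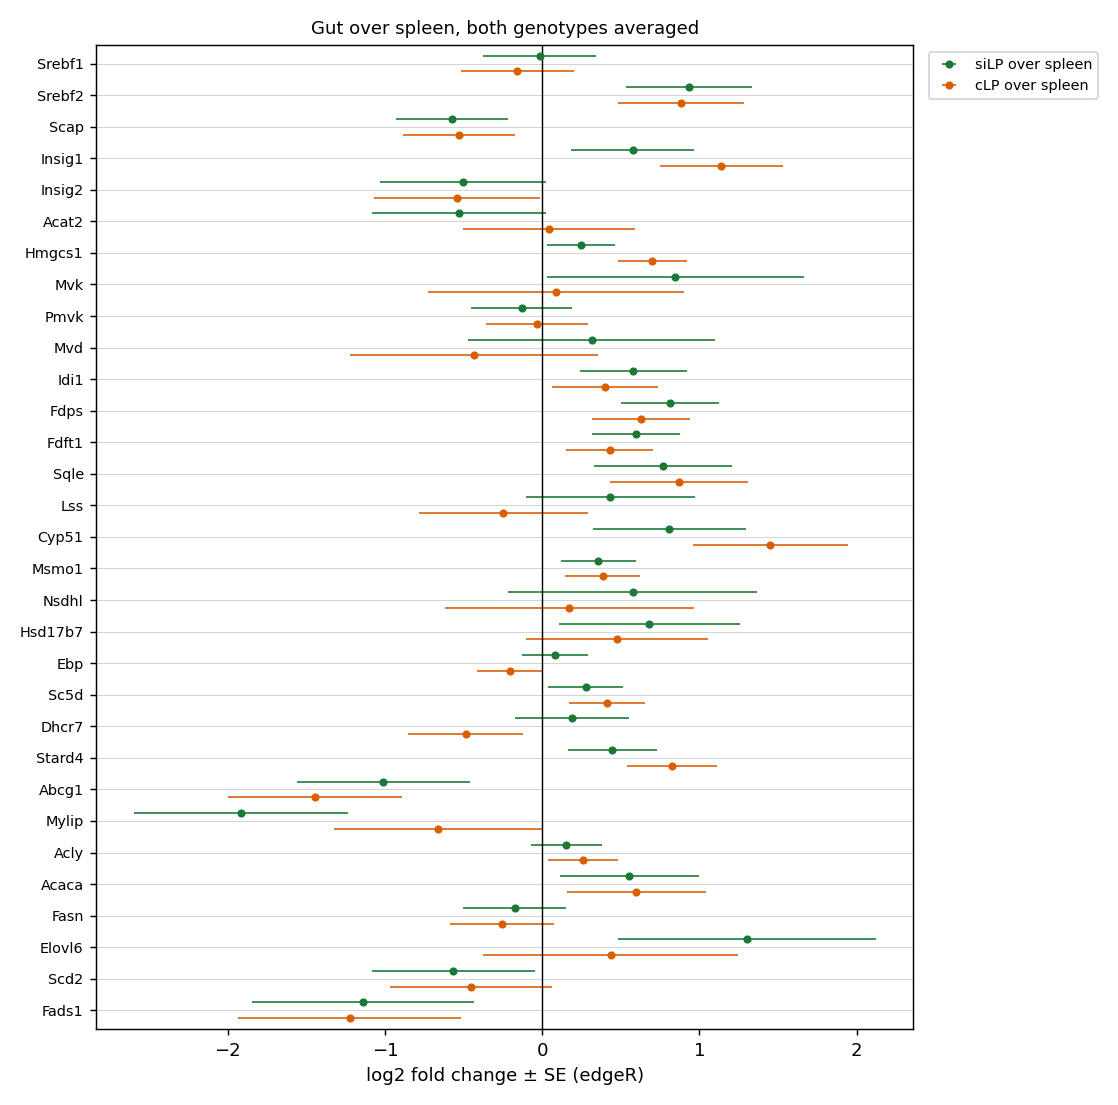
Log2 fold change over spleen (x axis, with SE from edgeR) for siLP in green and cLP in orange, both genotypes averaged, for 31 genes in order of role. Fads2 was not tested, and Scd1 and Abca1 are left out because siLP has 0 counts in nearly all libraries. Cyp51 is farthest to the right in cLP (1.45) and Mylip farthest to the left in siLP (-1.92).

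Among the mevalonate steps, Hmgcs1 makes HMG-CoA, the substrate of the rate-limiting reductase. It had 34.3, 60.5 and 37.8 CPM in cLP CAR-deficient libraries and 73.2, 55.1 and 55.4 CPM in cLP wild-type libraries. In spleen it had 30.5, 32.3 and 26.7 CPM in CAR-deficient libraries and 33.9, 30.4 and 38.8 CPM in wild-type libraries. The colon values lie mostly above the spleen values and overlap them through 2 cLP CAR-deficient libraries. The log2 fold change of cLP over spleen was 0.70 ± 0.22 (SE), with an adjusted p of 0.0982 by edgeR and of 0.0157 by DESeq2. In siLP, Hmgcs1 had 30.0, 25.1 and 42.6 CPM in CAR-deficient libraries and 36.4, 58.3 and 38.2 CPM in wild-type libraries, which overlap the spleen values.

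Fdps, at the branch from which sterols and protein prenyl groups are made, had 60.2, 146 and 113 CPM in siLP CAR-deficient libraries and 142, 160 and 132 CPM in siLP wild-type libraries. In spleen it had 32.6, 92.4 and 52.3 CPM in CAR-deficient libraries and 60.3, 104 and 89.7 CPM in wild-type libraries. All 3 siLP wild-type libraries exceeded every spleen library, whereas siLP CAR-deficient library a lay within the spleen range. The log2 fold change of siLP over spleen was 0.81 ± 0.31 (SE), with an adjusted p of 0.387 by edgeR. In the annotation, 26.71% of its exon bases also belong to Gm43738 on the same strand, which averaged 0.0429 CPM. With the genotypes pooled, the other mevalonate genes overlapped between gut and spleen. They ran from Mvk (mevalonate kinase), at 0.0461 to 9.59 CPM over all 18 libraries, to Idi1, at 31.5 to 156 CPM. Acat2, the first step of the route, had 3.83 to 60.6 CPM.

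Among the sterol steps, Cyp51 separated colon from spleen in every library. It had 47.8, 62.9 and 66.7 CPM in cLP CAR-deficient libraries and 57.7, 90.0 and 75.8 CPM in cLP wild-type libraries. In spleen it had 6.64, 39.5 and 19.0 CPM in CAR-deficient libraries and 8.38, 39.8 and 33.2 CPM in wild-type libraries. The 6 colon values are all above the 6 spleen values, and the libraries a are the lowest of each group. Cyp51 was the only one of 33 genes that lay above spleen without overlap in cLP, where 2.31% of all genes did. A single gene of 33 is near that share. The log2 fold change of Cyp51 was 1.45 ± 0.49 (SE), with an adjusted p of 0.132 by edgeR. It passed at 0.0397 by DESeq2 and, by edgeR, at 0.0195 without the 6 libraries a. In siLP, Cyp51 had 6.83, 34.6 and 47.6 CPM in CAR-deficient libraries and 32.4, 77.9 and 72.6 CPM in wild-type libraries, spread across the spleen and colon ranges. Exons of Cyp51 share 166 bases with Akap9 on the opposite strand (3.76% of its exon bases), and the library chemistry does not mark strand.

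Fdft1, squalene synthase and the first step committed to sterols, had 34.3, 103 and 58.1 CPM in siLP CAR-deficient libraries and 50.3, 97.4 and 88.5 CPM in siLP wild-type libraries. Spleen values were 29.1, 56.9 and 36.8 CPM in CAR-deficient libraries and 41.0, 69.2 and 54.4 CPM in wild-type libraries. The ranges overlap, and the log2 fold change of siLP over spleen was 0.60 ± 0.28 (SE), with an adjusted p of 0.515 by edgeR, and was 0.36 without siLP CAR-deficient library b. Fdft1 is uncertain because 18.31% of its exon bases also belong to Ctsb on the opposite strand, which averaged 331 CPM. Sqle, the squalene monooxygenase, had 30.1, 31.6 and 23.8 CPM in cLP CAR-deficient libraries and 2.85, 18.7 and 12.2 CPM in spleen CAR-deficient libraries, without overlap. Its log2 fold change there was 1.34 ± 0.63 (SE), with an adjusted p of 0.478 by edgeR, and was 0.87 without the 6 libraries a. In wild-type libraries Sqle had 14.1, 29.0 and 26.7 CPM in cLP and 6.26, 25.2 and 21.3 CPM in spleen, which overlap. Its log2 fold change was 0.40 ± 0.62 (SE) in wild type and 0.87 ± 0.44 over both genotypes, with adjusted p of 1.0 and 0.378 by edgeR.

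With the genotypes pooled, the later sterol genes overlapped between sites. Within wild type, Hsd17b7 and Sc5d lay above spleen without overlap in siLP and cLP. Within CAR-deficient libraries, Msmo1 did so in cLP. Shares of all genes are given with the counts by genotype below. Ebp had 113 to 133 CPM in siLP and 58.4 to 135 CPM in cLP, against 76.8 to 140 CPM in spleen. Sc5d averaged 86.7 CPM in siLP and 94.0 CPM in cLP, against 70.7 CPM in spleen. Lss (lanosterol synthase), Hsd17b7 (a sterol keto reductase) and Dhcr7 (the last reduction to cholesterol) had lower values, from 1.27 to 29.3 CPM over all libraries.

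In SREBP control, Insig1 had 7.46, 21.9 and 12.6 CPM in cLP CAR-deficient libraries and 10.4, 24.7 and 15.4 CPM in cLP wild-type libraries. Its spleen values were 8.43, 8.32 and 3.04 CPM in CAR-deficient libraries and 9.58, 6.50 and 5.86 CPM in wild-type libraries. The sites overlap only through cLP CAR-deficient library a. The log2 fold change was 1.14 ± 0.39 (SE), with an adjusted p of 0.138 by edgeR and of 0.0330 by DESeq2. It was 1.74 by voom, with an adjusted p of 0.00171, and 1.66 without the 6 libraries a, with an adjusted p of 0.0401 by edgeR. In siLP, Insig1 had 5.33, 11 and 6.94 CPM in CAR-deficient libraries and 12.7, 18.0 and 10.7 CPM in wild-type libraries. Srebf2 had 19.7, 8.22 and 15.0 CPM in siLP CAR-deficient libraries and 14.7, 21.2 and 28.9 CPM in siLP wild-type libraries, against 1.84, 9.78 and 10.4 CPM in spleen CAR-deficient libraries and 8.06, 10.7 and 15.7 CPM in spleen wild-type libraries. Its log2 fold change over spleen was 0.94 ± 0.40 (SE) in siLP and 0.89 ± 0.40 in cLP, with adjusted p of 0.456 and 0.304 by edgeR, and without the 6 libraries a it was 0.56 in siLP. Srebf1 averaged 14.4 CPM in siLP and 12.9 CPM in cLP, against 14.6 CPM in spleen. Insig2 averaged 24.7 CPM in siLP, 23.7 CPM in cLP and 34.6 CPM in spleen.

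**Figure D4:**
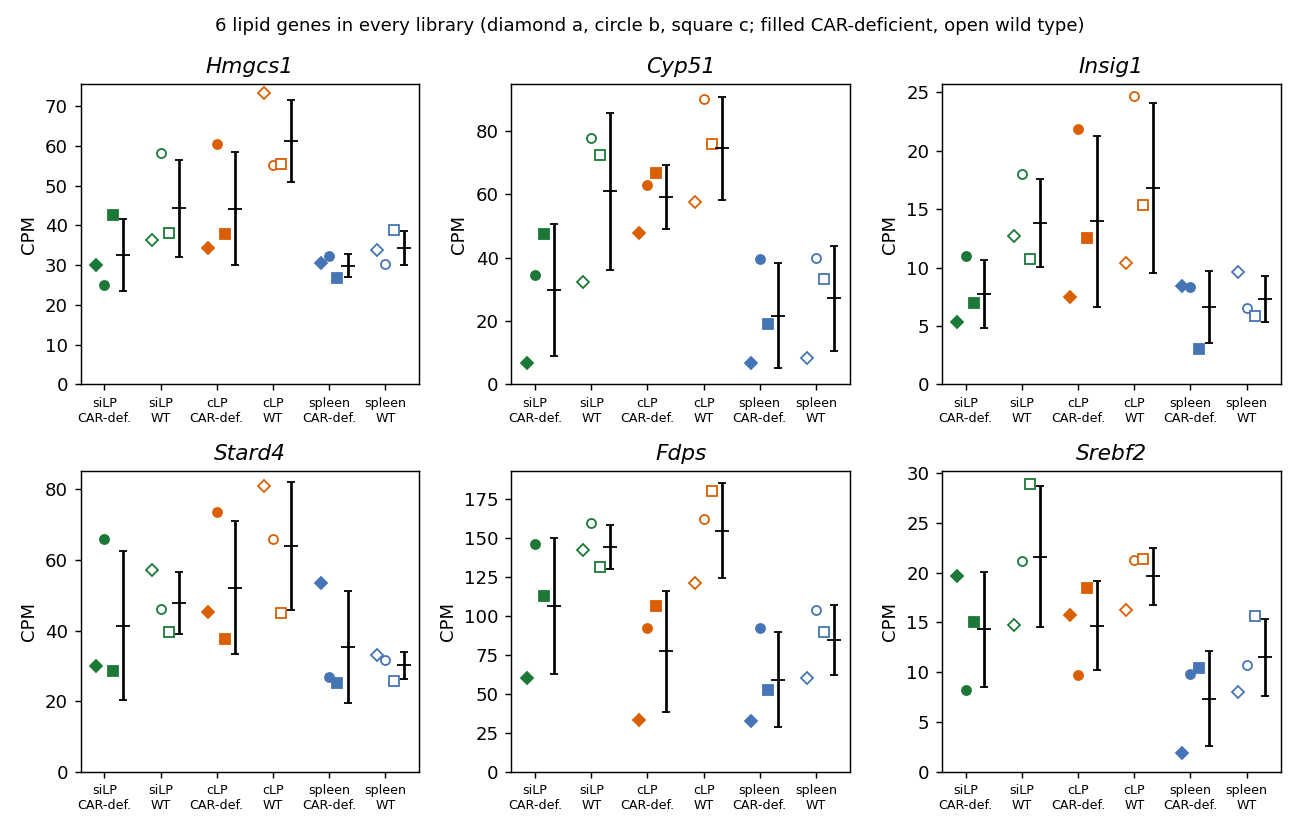
CPM of 6 genes in every library, by organ and genotype, with CAR-deficient libraries as filled and wild-type libraries as open symbols. Diamonds, circles and squares are libraries a, b and c, and bars give the mean and SD of 3. All 6 cLP values of Cyp51 (47.8 to 90.0 CPM) are above its 6 spleen values (6.64 to 39.8 CPM).

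The sterol transport and efflux genes lay on both sides of their spleen levels. Stard4 had 45.4, 73.4 and 37.7 CPM in cLP CAR-deficient libraries and 81.0, 65.9 and 45.0 CPM in cLP wild-type libraries. In spleen it had 53.5, 26.9 and 25.2 CPM in CAR-deficient libraries and 33.0, 31.7 and 25.8 CPM in wild-type libraries. Only spleen CAR-deficient library a reached into the colon range, and the log2 fold change was 0.83 ± 0.28 (SE), with an adjusted p of 0.138 by edgeR. Abcg1, an LXR target that exports cholesterol, had 1.42, 10.45 and 6.39 CPM in cLP CAR-deficient libraries and 0.957, 8.16 and 5.72 CPM in cLP wild-type libraries. Its spleen values of 23.3, 10.53 and 11.8 CPM in CAR-deficient libraries and 18.0, 13.5 and 12.6 CPM in wild-type libraries are all higher. Abcg1 was the only one of 33 genes below spleen without overlap in cLP, where 1.16% of all genes were. A single gene of 33 does not set the list apart from that share. The log2 fold change of Abcg1 was -1.44 ± 0.55 (SE), with an adjusted p of 0.195 by edgeR, and was -0.64 without the 6 libraries a.

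Abca1, the other efflux pump, was barely detected. It had 0 counts in 5 of 6 siLP libraries and 3 counts in the other one, and 36, 20 and 15 counts in spleen wild-type libraries. In spleen CAR-deficient libraries it had 1, 0 and 12 counts. In cLP it had 0, 11 and 28 counts in CAR-deficient libraries and 0, 32 and 21 in wild-type libraries. Mylip, an LXR-induced ubiquitin ligase that marks lipoprotein receptors for breakdown, had 11.1, 4.85 and 11.8 CPM in siLP CAR-deficient libraries and 0.0901, 6.93 and 7.89 CPM in siLP wild-type libraries. In spleen it had 43.0, 12.5 and 39.2 CPM in CAR-deficient libraries and 37.1, 6.95 and 18.5 CPM in wild-type libraries. The log2 fold change was -1.92 ± 0.68 (SE), with an adjusted p of 0.328 by edgeR, and was -1.21 without the 6 libraries a.

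The fatty acid synthesis genes also lay on both sides of their spleen levels, within overlapping ranges when the genotypes were pooled. Acly averaged 59.3 CPM in siLP and 63.7 CPM in cLP, against 53.6 CPM in spleen, and Fasn averaged 15.6 CPM in siLP and 14.4 CPM in cLP, against 17.2 CPM in spleen. Acaca averaged 9.17 CPM in siLP and 9.38 CPM in cLP, against 6.35 CPM in spleen. Elovl6 averaged 18.8 CPM in siLP and 10.4 CPM in cLP, against 7.62 CPM in spleen, with a log2 fold change of 1.30 ± 0.82 (SE) in siLP and an adjusted p of 0.669 by edgeR. Its siLP values of 39.7, 2.49 and 13.4 CPM in CAR-deficient libraries and 36.1, 11.5 and 9.68 CPM in wild-type libraries were highest in the libraries a. Scd2 averaged 20.7 CPM in siLP and 20.9 CPM in cLP, against 28.9 CPM in spleen, and Fads1 averaged 3.14 CPM in siLP and 2.92 CPM in cLP, against 6.66 CPM in spleen. None of the 7 tested genes of this role had an adjusted p under 0.475 in cLP by edgeR. In siLP, none apart from Scd1 had an adjusted p under 0.663 by edgeR. Scd1 passed the filter through cLP libraries, so its p is no test in either site.

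The same sites were then compared within each genotype. In CAR-deficient libraries, 4 of 33 genes lay above spleen without overlap in cLP (8.19% of all genes) and 1 lay below (6.43%). In wild-type libraries, 10 of 33 lay above (8.09%) and 3 below (6.90%). For siLP the counts were 0 of 33 above (6.90%) and 1 below (5.18%) in CAR-deficient libraries, and 6 above (7.37%) and 3 below (5.06%) in wild-type libraries. No gene passed the adjusted threshold by edgeR in cLP of either genotype (background 0.484% of all genes in CAR-deficient and 0.376% in wild-type cells) or in siLP (0.215% in CAR-deficient and 0.188% in wild-type cells). Voom called 3 genes in wild-type cLP, and DESeq2 called 0 in each of these. The share of all genes that voom called in wild-type cLP was not compared, so the 3 are a description only. At an unadjusted p under 0.05 there was 1 gene in CAR-deficient cLP (10.2% of all genes) and 4 in wild-type cLP (7.61%), and 1 in CAR-deficient siLP (7.11%) and 3 in wild-type siLP (4.54%). Abca1 was the gene in CAR-deficient siLP and 1 of the 3 in wild-type siLP, and it was also 1 of the 3 below spleen there. It passed the filter through libraries outside siLP, so its p and its place in these counts are no test. Of the 4 in wild-type cLP, Stard4 had a log2 fold change over spleen of 1.08 ± 0.40 (SE), Hmgcs1 of 0.83 ± 0.31, Insig1 of 1.20 ± 0.56 and Scap of -1.09 ± 0.51. The genotype effect in gut minus that in spleen was past an adjusted or an unadjusted 0.05 for 0 of 33 genes in either gut site by edgeR (background 0% adjusted, and 2.27% in siLP and 1.24% in cLP unadjusted).

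Between small intestine and colon, 0 of the 33 genes were called by edgeR or DESeq2 and 1, Abca1, by voom, and edgeR called 0% of all genes. The 2 of 33 genes with an unadjusted p under 0.05 (8.34% of all genes), Abca1 and Scd1, passed the filter through libraries outside siLP, so their p is no test and their values are a description only. Scd1 was at 0 counts in all 6 siLP libraries, which allows up to 3 counts per library, and at 1.00 to 52.2 counts in 4 of the 6 cLP libraries.

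Markers of other cell types moved with the organ. The 5 stroma and adipocyte markers summed to 8.0 to 303 CPM in siLP and 12.0 to 1131 CPM in cLP, against 1.5 to 2.99 CPM in spleen, with Adipoq at 0 in cLP and spleen. Most of the larger gut sums was Dcn, at up to 1049 CPM in cLP and 257 CPM in siLP, against at most 0.245 CPM in spleen. Col3a1 had up to 86.7 CPM in cLP and 36.0 CPM in siLP, against 0 CPM in spleen. Plin1 had 1.36 to 6.04 CPM in cLP and 2.70 to 4.72 CPM in siLP, against 1.03 to 2.54 CPM in spleen. The 10 epithelial markers summed to 4.73 to 23.7 CPM in siLP and 21.1 to 278 CPM in cLP, against 7.70 to 13.0 CPM in spleen. The 9 macrophage markers summed to 64.4 to 196 CPM in siLP and 26.5 to 118 CPM in cLP, against 18.4 to 71.1 CPM in spleen. Of these, Lyz2 had 24.6 to 119 CPM in siLP and 7.92 to 70.6 CPM in cLP, against 0 to 7.44 CPM in spleen. Mrc1 went the other way, at 0 CPM in siLP and up to 7.97 CPM in spleen. Csf1r did so in cLP, at no more than 0.308 CPM, against up to 5.38 CPM in spleen. The 3 erythroid markers were highest in spleen, at 59.5 to 1003 CPM, with at most 9.46 CPM in siLP and 11.8 CPM in cLP. Their part in the organ values of the lipid genes was not tested. Cell cycle genes lay mostly below their spleen levels in both gut sites. In cLP, 5 of 14 fell by edgeR (Mki67, Ccnb1, Ccnb2, Birc5 and Ube2c), where 0.350% of all genes fell, and 0 of 14 rose. In siLP, 14 of 14 fold changes were below 0, where 49.2% of all genes were above 0. By edgeR, 0 were called there (0.847% of all genes), and 8 had an unadjusted p under 0.05 (9.65% of all genes). Their part was likewise not tested.

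CAR-deficient and wild-type cells were compared to ask whether loss of this nuclear receptor bears on the lipid genes. Fold changes were mostly below 0, and no gene passed the test. By edgeR, 0 of 33 had an adjusted p under 0.05 averaged over organs, where 0.0134% of all genes did, and 0 of 33 in siLP, cLP or spleen alone, where 0% of all genes did. DESeq2 and voom also called 0 of the 33. At an unadjusted p under 0.05 there was 1 of 33 averaged over organs (5.77% of all genes), 0 in siLP (4.31%), 1 in cLP (2.44%) and 0 in spleen (1.95%). Averaged over organs, 8 of 33 fold changes were above 0 and 25 below, where 49.1% of all genes were above 0, with a median log2 fold change of -0.16 against -0.01 over all genes. With 1 library left out, the number above 0 ran from 7 to 12, with 12 without spleen wild-type library b, and the median was closest to 0, at -0.10, without siLP CAR-deficient library a. All 7 mevalonate genes and 8 of 10 sterol-step genes were below 0, as were 4 of 7 fatty acid genes.

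Fdps was the gene with the lowest unadjusted p, in the average and in colon. It had 33.2, 92.7 and 106 CPM in cLP CAR-deficient libraries, against 121, 163 and 181 CPM in cLP wild-type libraries, without overlap. In siLP and spleen the values given above overlap between genotypes. The log2 fold change of CAR-deficient over wild type was -0.65 ± 0.25 (SE) averaged over organs and -1.0 ± 0.44 in cLP, with unadjusted p of 0.0209 and 0.0386 and adjusted p of 0.726 and 1.0 by edgeR. The cLP value was -0.65 without cLP CAR-deficient library a.

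Hmgcs1 averaged 32.6 ± 9.0 CPM in siLP CAR-deficient libraries and 44.3 ± 12.2 CPM in siLP wild-type libraries (SD, n = 3 each). It averaged 44.2 ± 14.2 CPM in cLP CAR-deficient and 61.3 ± 10.4 CPM in cLP wild-type libraries, and 29.8 ± 2.89 CPM in spleen CAR-deficient and 34.4 ± 4.20 CPM in spleen wild-type libraries. Its log2 fold change averaged over organs was -0.37 ± 0.18 (SE), with an adjusted p of 0.859 by edgeR. Srebf2 averaged 14.3 ± 5.75 CPM in siLP CAR-deficient and 21.6 ± 7.07 CPM in siLP wild-type libraries. The means were 14.7 ± 4.48 CPM in CAR-deficient and 19.6 ± 2.91 CPM in wild-type libraries of cLP, and 7.35 ± 4.78 CPM in CAR-deficient and 11.5 ± 3.87 CPM in wild-type libraries of spleen. Within each organ the ranges of the genotypes overlap for both genes. Averaged over organs, the log2 fold change of Srebf2 was -0.55 ± 0.33 (SE), with an adjusted p of 0.939 by edgeR.

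**Figure D5:**
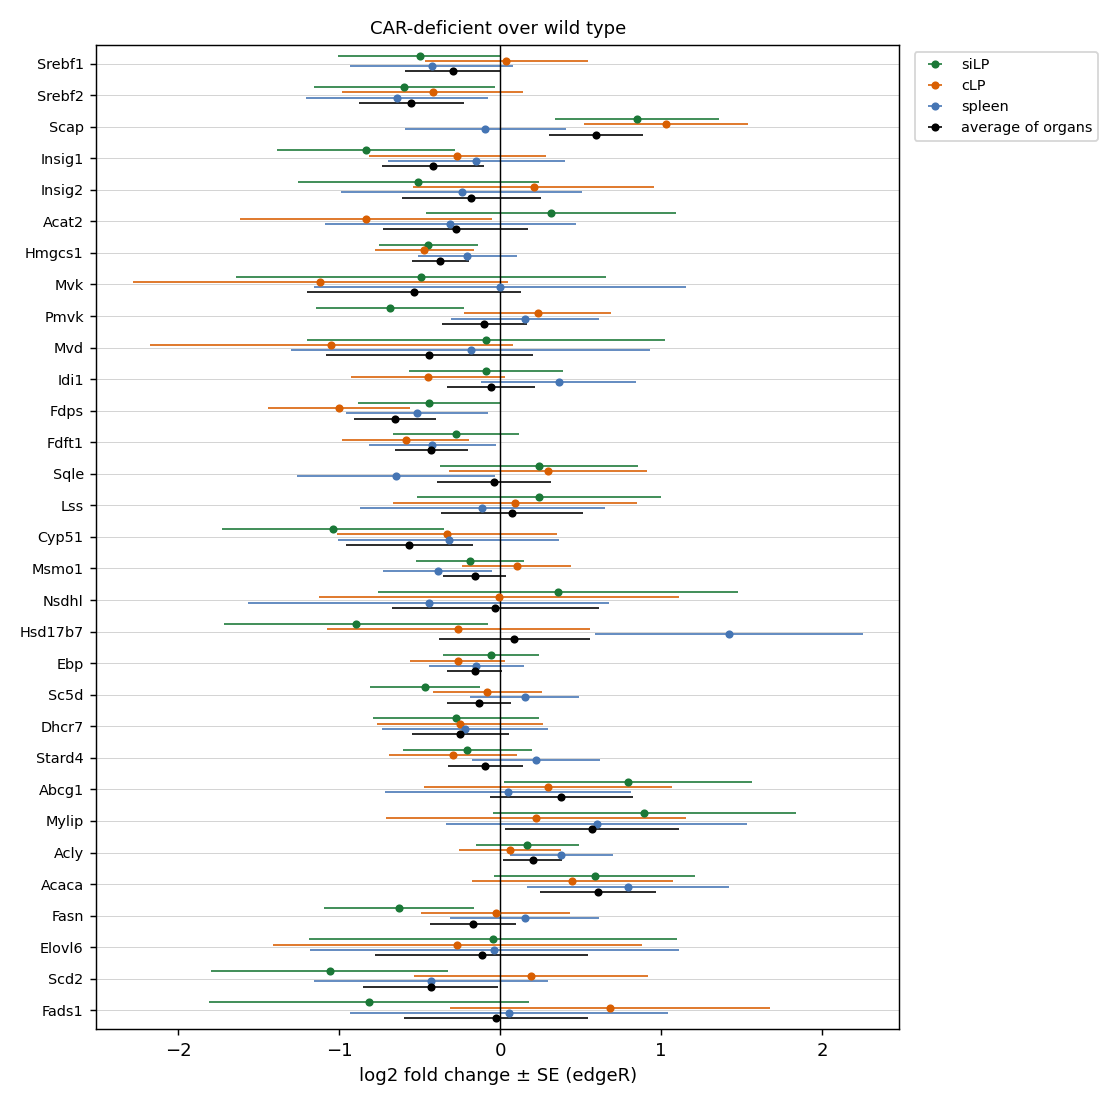
Log2 fold change of CAR-deficient over wild type (x axis, with SE from edgeR) in siLP, cLP, spleen and averaged over organs, for 31 genes in order of role. Fads2 was not tested, and Scd1 and Abca1 are left out for low counts. Fdps has the lowest average among the genes drawn (-0.65).

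Few genes separated the genotypes within 1 organ, and a count of 1 of 33 is near the share of all genes given beside it. In cLP, Scap had 10.5, 14.7 and 13.5 CPM in CAR-deficient libraries, against 3.10, 6.94 and 8.94 CPM in wild-type libraries, the only one of 33 genes above without overlap (4.09% of all genes). Fdps, Fdft1 and Mvk were below without overlap there (3.32% of all genes). In siLP, 0 of 33 were above (3.80%) and only Dhcr7 was below (4.52%), with 14.4, 11.1 and 13.9 CPM in CAR-deficient libraries and 14.8, 17.3 and 15.5 CPM in wild-type libraries. In spleen, 0 of 33 were above (3.23%) and Msmo1 and Abca1 were below (3.09%). Msmo1 had 42.1, 53.7 and 52.9 CPM in spleen CAR-deficient libraries and 76.0, 59.8 and 58.9 CPM in spleen wild-type libraries. Over all organs together, 0 of 33 separated in either direction (0.0134% of all genes above and 0.00672% below).

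Beside these values, summed epithelial markers were higher in CAR-deficient libraries of both gut sites. They were 15.1 to 23.7 CPM in siLP CAR-deficient and 4.73 to 8.73 CPM in siLP wild-type libraries, and 44.9 to 278 CPM in cLP CAR-deficient and 21.1 to 42.3 CPM in cLP wild-type libraries. In cLP, CAR-deficient libraries a and c, at 49.4 and 44.9 CPM, were close to the wild-type range. Library b had 278 CPM, of which Lgals4 gave 126 CPM. Epcam overlapped in cLP, at 0, 29.1 and 5.95 CPM in CAR-deficient and 14.4, 3.33 and 8.21 CPM in wild-type libraries. Krt20 was highest in cLP wild-type library b, at 1.69 CPM. The siLP CAR-deficient sums rested on different genes in each library. Lgals4 had 19.4, 0.927 and 6.63 CPM there, against 3.11, 5.70 and 6.88 CPM in siLP wild-type libraries. Cdh1 had 0, 7.08 and 0.394 CPM in siLP CAR-deficient libraries. Krt20 and Vil1 were at 0 in all siLP libraries of both genotypes. Summed cell cycle genes were 1322 to 1512 CPM in cLP CAR-deficient and 1704 to 2370 CPM in cLP wild-type libraries. The sums overlapped in siLP, at 1042 to 1909 CPM in CAR-deficient and 1711 to 2859 CPM in wild-type libraries, and in spleen, at 2227 to 3768 CPM in CAR-deficient and 2615 to 3630 CPM in wild-type libraries. Averaged over organs, 14 of 14 cell cycle genes had a log2 fold change of CAR-deficient over wild type below 0, where 49.1% of all genes were above 0. By edgeR, 0 were called (0.0134% of all genes), and 4 of 14 had an unadjusted p under 0.05, all lower (5.77% of all genes). The median log2 fold change of the 14 was -0.46, beside -0.16 for the 33 lipid genes. The part of these markers and cell cycle genes in the genotype values was not tested.

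Other lipid genes outside the 34 were set beside them as a list of 34 further pathway genes, of which all were tested. In cLP against spleen, 1 of these rose by edgeR, where 2.72% of all genes rose, and 0 fell, where 0.350% did. A single gene of 34 is near that share. Dgat1, which makes triglyceride from diglyceride, had 283, 196 and 91.9 CPM in cLP CAR-deficient libraries and 144, 122 and 81.0 CPM in cLP wild-type libraries. In spleen it had 63.8, 33.1 and 18.6 CPM in CAR-deficient libraries and 29.4, 30.4 and 15.0 CPM in wild-type libraries. All 6 colon values are above all 6 spleen values, and the log2 fold change was 2.26 ± 0.37 (SE), with an adjusted p of 0.00267 by edgeR. In siLP its log2 fold change over spleen was 1.25 ± 0.35 (SE), with an adjusted p of 0.167 by edgeR. Of 14 fatty acid oxidation genes, 0 were called by edgeR in cLP (3.07% of all genes) or siLP (0.847%), and 0 had an unadjusted p under 0.05 there (15.0% of all genes in cLP and 9.65% in siLP). In CAR-deficient against wild-type cells averaged over organs, 0 of the 34 further genes were called by edgeR, and 2 had an unadjusted p under 0.05 (5.77% of all genes).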

How the data were processed

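SMART-Seq v4 libraries were sequenced, and the submitters' processing notes name Salmon, DESeq2 and mm10 without versions. The authors deposited 1 table with an unscaled estimated count per gene and library, per the file headers. Its other 36 per-library columns were not used, because columns carry no replicate number to tie them to a sample. Of 34162 identifiers, 79 had no symbol and no annotated exon length. Column names give organ and CD45.1 status, from which CAR-deficient was taken by elimination. Estimated counts were rounded. Genes passing edgeR's filterByExpr (14876) were TMM-scaled and fitted as 6 groups with edgeR 4.0.16 quasi-likelihood in R 4.3.3, with Benjamini-Hochberg adjustment over all tested genes and a threshold of 0.05. The common biological coefficient of variation was 0.7915. CPM compares libraries. TPM, computed from the counts and GENCODE vM21 merged exon lengths instead of the deposited values that were planned, compares genes. Counting floors of 3 counts cover counting error only. Alternatives were RLE scaling, DESeq2 1.42.0, limma 3.58.1 voom with quality weights, no filter, column ending as a block, omission of the 6 libraries a, and omission of each library. No 2 libraries held identical values, and the highest correlation between any pair was 0.98938. The genes named are all 34 listed genes by role, other lipid genes past the threshold, Nr1i3, and markers as lists. Members and lists were chosen with earlier results of these data known. Acat2, Idi1, Scd1 and Scd2 have close relatives that share sequence, so their counts are uncertain where reads could be split.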

Additional observations from a re-analysis of the deposited data

How the results depend on the processing

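By edgeR, 0 of the 33 tested genes were called in all 13 comparisons with RLE scaling, without the filter on low counts and in every fit that left out 1 library (0 to 0 genes). In cLP against spleen the count became 3 by DESeq2, 8 by voom with quality weights, 1 with the column ending as a replicate block and 2 without the 6 libraries a; the cause was not tested. In wild-type cLP against spleen it became 3 by voom, and in siLP against cLP 1 by voom (Abca1), without the shares of all genes by voom set beside them. Cyp51 was called in cLP against spleen under each of these 4 settings, with a log2 fold change of 1.76 and an adjusted p of 0.00637 in the block fit. Column endings are not stated to pair libraries: deviations correlated above 0.1 in 40 of 45 pairs with the same ending and in 8 of 90 others. Over 29 fold changes and 24 alternatives, 680 values kept direction and side of the threshold, 16 became called and 0 reversed. Most of these fold changes were picked for an unadjusted p under 0.05 by edgeR in these same data. Most of the alternatives leave out only 1 library. Few reversals could therefore arise, and the tally is no test of robustness. Counts over all genes moved more: the 456 of cLP against spleen became 1054 by DESeq2, 1828 by voom, 747 with the block and 749 without the libraries a, and the 2 of the genotype average became 123 by DESeq2 and 11 by voom. The planned offset for transcript length was not run, since the length columns were not used.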
